A study of Sus scrofa with 6 samples.

Results

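Immediate early genes are those a cell transcribes within minutes of a stimulus without first making new protein. A set of 10 of them was examined in pig lung around birth: *FOS*, *FOSB*, *JUN*, *JUNB*, *JUND*, *EGR1*, *EGR3*, *ATF3*, *IER2* and *IER3*. They were looked up by symbol in the deposited table of 14579 mRNAs, through pig Ensembl identifiers and, where a name was missing there, the gene names of a supplementary table of the study. A row was found for 7 of the 10. No row carried the symbol *FOSB*, *JUN* or *JUND*, and these 3 genes were not analysed here. The samples were lungs of female piglets from a Tibetan boar and Meishan sow cross. The 3 fetal piglets, each from a different sow, were taken a day before birth was due. The neonatal group held 3 piglets from 3 other sows, taken 2 days after birth. No animal was treated, and the age of the piglet was the only factor the labels give. The methods of the study name caesarean as well as parturition and killing by bleeding under ketamine, and they describe sampling as rapid and freezing as immediate, without a time in minutes. Days of life, air breathing, mode of delivery and any difference in killing or sampling therefore cannot be told apart between the groups.

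The products of these genes fall into several families. FOS and JUNB are basic leucine zipper proteins that pair into the AP-1 transcription factor, and ATF3 is a related zipper protein of the ATF and CREB family that is induced by stress. EGR1 and EGR3 are zinc finger transcription factors. IER2 is a short nuclear protein of the early response, and IER3 is an early response protein linked to cell survival. In lung, stretch, growth factors, oxygen tension and handling of the tissue are all known to switch such genes on, mostly through serum response factor (SRF) and its ternary complex cofactors or through CREB. The RNAs are short-lived, so a level in frozen tissue reflects the time just before sampling.

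Values are FPKM, fragments scaled by transcript length and by the mapped reads of the library, which allow levels of different genes to be set side by side per length. The group difference, log2(FC), is the neonatal minus the fetal mean of log2(FPKM + 1) from limma, and an adjusted p (Benjamini-Hochberg over all 14579 mRNAs) of at most 0.05 counted as past the threshold. The scale understates the change of genes with low FPKM. The table holds no read counts behind the single values, so counting error could not be given and the spread among 3 piglets is the only error. Of all mRNAs, 6.87% were past the threshold, 5.41% higher and 1.45% lower in the neonatal group. Over all mRNAs the log2(FC) had a median of 0.13. It became -0.0090 with median-of-ratios scaling and -0.04 with quantile normalization, and the share of calls that were higher went from 78.8% to 66.0% and 57.9%. The alveolar markers *SFTPC* and *AGER* were high in both groups, with fetal means of 3508 and 583 FPKM and neonatal means of 6373 and 605 FPKM.

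*FOS*, *JUNB*, *EGR1*, *IER2* and *IER3* were higher in the neonatal group, by 2.50 to 5.30 times in mean FPKM, and all 5 were past the threshold. *ATF3* and *EGR3* were not. In each of the 5 genes every neonatal piglet lay above every fetal piglet, a separation that 20.9% of all mRNAs showed in this direction. The median log2(FC) of the 7 genes was 1.52, beside 0.13 for all mRNAs, and all 7 differences were positive, as were 59.9% of those of all mRNAs. *EGR3* met the authors' limit of 0.5 FPKM only through Neonatal3, at 0.841 FPKM. That limit favoured its positive sign, which is no support for a rise. The 5 rises kept their direction and stayed past the threshold under median-of-ratios scaling and quantile normalization, with log2(FC) values between 0.99 for *IER2* under quantile normalization and 2.18 for *FOS* under median-of-ratios scaling. They were less secure against the loss of a piglet. With 1 piglet left out, between 1 and 4 of the 5 remained past the threshold, with 1 left when Neonatal2 or Neonatal3 was removed, while the calls among all mRNAs went from 1001 to between 196 and 944.

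**Figure D1:**
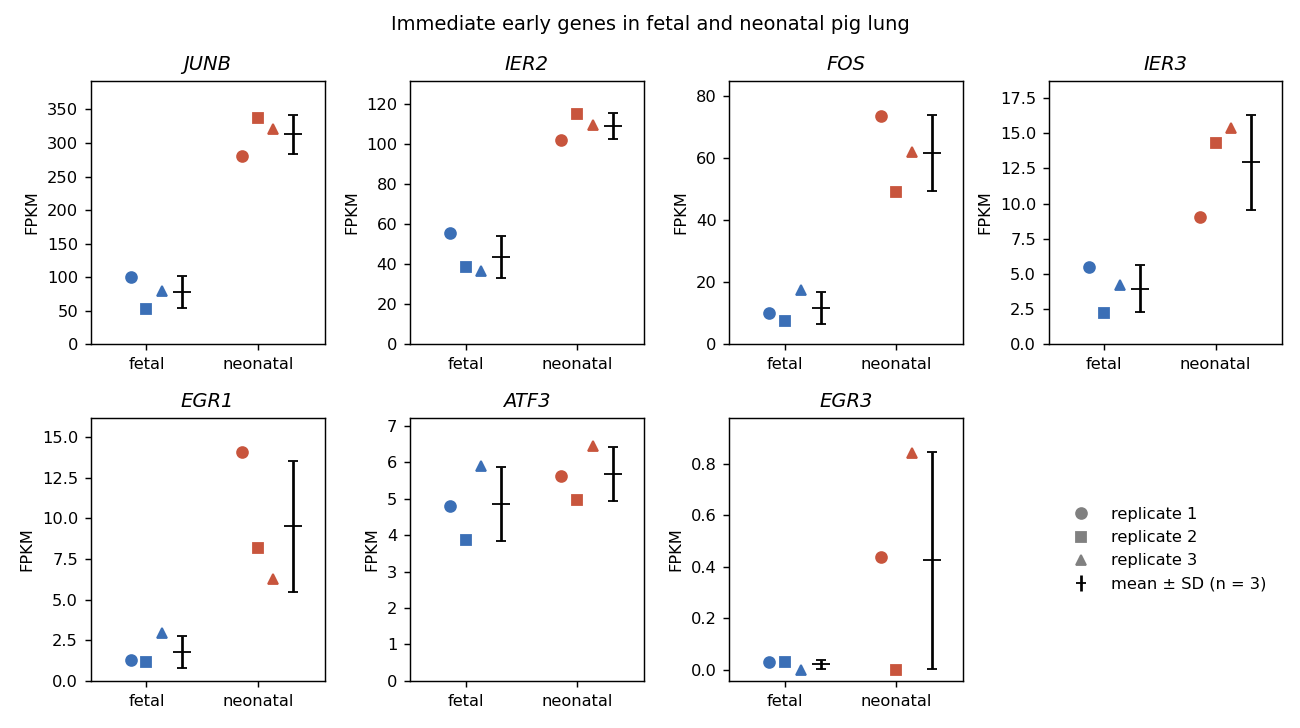
FPKM of the 7 immediate early genes in each of the 6 lungs, with a panel per gene and a linear axis from 0 or just below; symbols mark the replicate number, and the black mark with bars is the group mean ± SD (n = 3). The groups separate fully in *JUNB*, *IER2*, *FOS*, *IER3* and *EGR1*, and overlap in *ATF3* and *EGR3*.

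The AP-1 gene *FOS* (ENSSSCG00000002383) stood at 10.2, 7.59 and 17.6 FPKM in Fetal1, Fetal2 and Fetal3. In Neonatal1, Neonatal2 and Neonatal3 it reached 73.6, 49.2 and 62.2 FPKM. The lowest neonatal lung thus had 2.80 times the FPKM of the highest fetal lung. Means were 11.8 ± 5.19 and 61.7 ± 12.2 FPKM (SD, n = 3 each). The log2(FC) was 2.35 with a standard error of 0.31 (limma adjusted p = 0.00790). This was the largest difference of the 7 genes, above that of 99.1% of all mRNAs. Without Neonatal3 the adjusted p was 0.0510.

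*JUNB* (ENSSSCG00000013735), which codes for a JUN protein that can pair with FOS, had the highest FPKM of the 7 genes in every lung. Its values were 100.3, 53.1 and 79.2 FPKM in the fetal and 280.1, 337 and 322 FPKM in the neonatal lungs. The neonatal lungs lay close together, with a coefficient of variation of 9.39% against 30.5% among the fetal lungs. The mean went from 77.5 ± 23.6 to 313 ± 29.4 FPKM (SD, n = 3 each). On the log2 scale this was 2.04 with a standard error of 0.28 (limma adjusted p = 0.00876). Without Neonatal2 the adjusted p was 0.0515. By rank of mean FPKM, *JUNB* was the 590th mRNA of the fetal and the 265th of the neonatal lungs.

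*EGR1* (ENSSSCG00000014336) was low before birth. It had 1.27, 1.17 and 2.94 FPKM in the fetal lungs and 14.1, 8.18 and 6.29 FPKM in the neonatal lungs. Fetal3 and Neonatal1 were the highest of their groups, as they were for *FOS*. The ratio of the group means, 5.30, was the largest of the 5 genes past the threshold, but the spread was wide, with coefficients of variation of 55.3% and 42.6%. The log2(FC) was 1.90 with a standard error of 0.35 (limma adjusted p = 0.0223). It remained past the threshold without Fetal3, and with any other piglet removed the adjusted p lay between 0.0517 and 0.118.

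*EGR3* (ENSSSCG00000009630), whose product binds the same kind of site as EGR1, was near the floor of the table. It was given at 0.0316 and 0.0325 FPKM in Fetal1 and Fetal2 and listed at 0 in Fetal3. In the neonatal group it was given at 0.437 FPKM in Neonatal1 and 0.841 FPKM in Neonatal3, and listed at 0 in Neonatal2. The groups overlapped, and the log2(FC) of 0.44 was not past the threshold (95% confidence interval -0.18 to 1.06, adjusted p = 0.355 in limma). The log2(FC) was 0.23 without Neonatal3, 0.67 without Neonatal2 and 1.62 with a pseudocount of 0.1, and none of these passed. Neonatal3 alone brought the gene over the authors' limit of 0.5 FPKM in at least 1 sample. No fold is given against a group that includes a value of 0.

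*ATF3* (ENSSSCG00000015595) showed no difference past the threshold. Its FPKM was 4.79, 3.87 and 5.89 in the fetal and 5.61, 4.96 and 6.44 in the neonatal lungs, so that the groups overlapped. The log2(FC) of 0.20 had a 95% confidence interval from -0.28 to 0.68 (adjusted p = 0.589 in limma), and it fell to 0.05 under median-of-ratios scaling. The interval excludes a rise on this scale as large as the estimate for any of the 5 genes past the threshold.

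*IER2* (ENSSSCG00000013753) was at 55.5, 38.6 and 36.5 FPKM in the fetal lungs and at 102, 115 and 109 FPKM in the neonatal lungs. The 3 neonatal values differed little, with a coefficient of variation of 5.99%, the smallest of the 7 genes. Its mean went from 43.5 ± 10.4 to 109 ± 6.52 FPKM (SD, n = 3 each). This gave a log2(FC) of 1.33 with a standard error of 0.22 (limma adjusted p = 0.0157). It remained past the threshold without Fetal1 or Neonatal1, and without any of the other 4 piglets the adjusted p lay between 0.0621 and 0.0838.

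*IER3* (ENSSSCG00000027607) was at 5.46, 2.20 and 4.22 FPKM in the fetal lungs and at 9.07, 14.3 and 15.4 FPKM in the neonatal lungs. Neonatal1 was the lowest of its group, 1.66 times the highest fetal value. Means were 3.96 ± 1.64 and 12.9 ± 3.38 FPKM (SD, n = 3 each). The difference on the log2 scale was 1.52 with a standard error of 0.31 (limma adjusted p = 0.0336). The adjusted p was 0.0447 without Neonatal1, and between 0.0651 and 0.126 when any other piglet was left out.

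**Figure D2:**
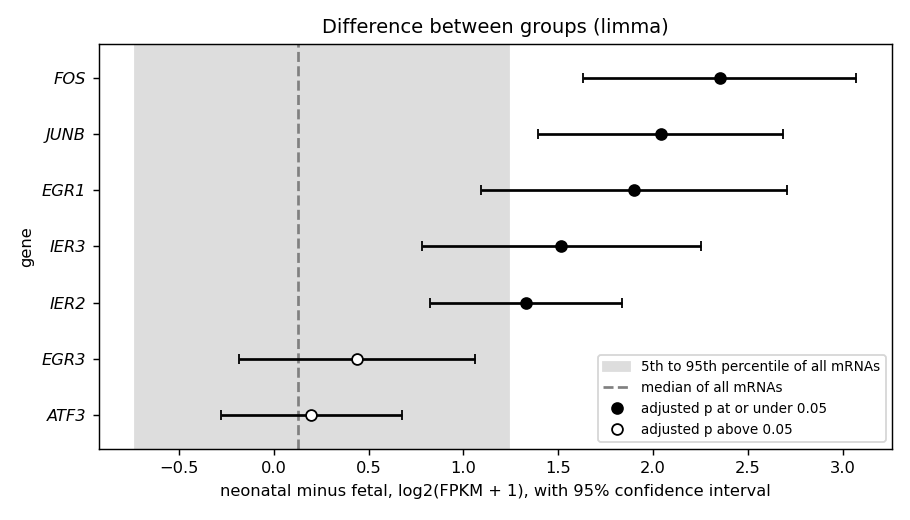
Difference between the groups for each gene on the log2(FPKM + 1) scale (x axis), with its 95% confidence interval from limma; filled points are past the threshold. The estimates of *FOS*, *JUNB*, *EGR1*, *IER3* and *IER2* (1.33 to 2.35) lie to the right of the grey band that holds the 5th to the 95th percentile of all mRNAs (-0.73 to 1.24), and those of *EGR3* and *ATF3* lie within it.

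The order of the levels was shared in part by the 6 lungs. In each of them *JUNB* was the highest, followed by *IER2* and then *FOS*, and *EGR3* was the lowest. Among the neonatal lungs the values of these 3 leading genes did not overlap. Among the fetal lungs those of *FOS* lay below the other two, while *JUNB* in Fetal2 (53.1 FPKM) was below *IER2* in Fetal1 (55.5 FPKM). Below them *IER3*, *ATF3* and *EGR1* changed places between lungs, and in both groups neighbouring genes among these 3 overlapped. *EGR1* was below *ATF3* in all fetal lungs and above it in Neonatal1 and Neonatal2. Summed over the 7 genes, FPKM was 143 ± 35.5 in the fetal and 512 ± 23.5 in the neonatal group (SD, n = 3 each). *JUNB* made up between 49.8% and 63.7% of the sum in a lung. The summed FPKM of all mRNAs was also higher in every neonatal lung than in any fetal lung. Of that total, the 7 genes made up 0.0417%, 0.0314% and 0.0310% in Fetal1, Fetal2 and Fetal3. In Neonatal1, Neonatal2 and Neonatal3 their share was 0.0987%, 0.0876% and 0.0671%.

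In FPKM as deposited, the piglets that stood highest differed between the genes. Among the neonatal lungs, *FOS* and *EGR1* were highest in Neonatal1, whereas *JUNB*, *IER2* and *IER3* were lowest there. Among the fetal lungs, *FOS*, *EGR1* and *ATF3* were highest in Fetal3 and *JUNB*, *IER2* and *IER3* in Fetal1. Fetal2 was the lowest fetal lung for *FOS*, *JUNB*, *EGR1*, *ATF3* and *IER3*. The order of close values depended on scaling, as median-of-ratios size factors ran from 0.908 for Fetal2 to 1.15 for Neonatal3. Divided by these factors, *JUNB* and *IER2* were lowest in Neonatal3 among the neonatal lungs, and *EGR1* in Fetal1 among the fetal lungs.

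Ratios of 2 genes within a lung do not depend on a factor that scales the whole library, though quantile normalization can change them. They were compared for the 15 pairs of the 6 genes that were above 0 in every lung. The log2 ratio of *FOS* to *EGR1* was 2.76 ± 0.215 in the fetal and 2.76 ± 0.482 in the neonatal group (SD, n = 3 each), and the groups overlapped (two-sided p = 0.9 in an exact permutation test). The log2 ratio of *JUNB* to *IER2* was 0.81 ± 0.333 and 1.52 ± 0.0564 (SD, n = 3 each), without overlap (two-sided p = 0.1 in an exact permutation test). All 5 ratios that set a gene against *ATF3* differed without overlap. They use the same values as the comparisons of single genes above and are not separate evidence for them. With *ATF3* as the denominator the log2 ratio changed by 2.22 for both *FOS* and *EGR1*, and that of *FOS* went from 1.21 ± 0.322 to 3.43 ± 0.244 (SD, n = 3 each), with a two-sided p of 0.1 in the exact permutation test. Of the 15 pairs 9 overlapped, *FOS* to *EGR1* among them. The smallest p that 3 lungs against 3 allow is 0.1, which became 0.25 when adjusted over the 15 pairs, so that no pair could pass.

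The mRNAs whose values were most like those of *FOS* were sought among 8705 named mRNAs with a mean of at least 1 FPKM, by the root mean square distance of log2(FPKM + 1), centred on the mean of the 6 lungs. The 5 nearest were *TCF19*, *BUB1B*, *CCNF*, *NPTX1* and *CDK1*, at distances of 0.226, 0.240, 0.243, 0.251 and 0.260. *CCNF* and *NPTX1* had fetal means of 0.713 and 0.720 FPKM and met the limit of 1 FPKM only through the neonatal group. Among low genes the limit thus favoured those that rise. *BUB1B* is a kinase of the spindle checkpoint, *CCNF* is cyclin F, *NPTX1* is a secreted pentraxin and *CDK1* is the kinase of mitotic entry. *EGR1* followed at 0.350, with 17 mRNAs nearer to *FOS*, and *JUNB* at 0.422, with 45 nearer. *IER3* and *IER2* were at 0.629 and 0.697, with 232 and 335 mRNAs nearer, and *EGR3* and *ATF3* were beyond 1. The measure counts the size of the rise as well as its shape over the lungs.

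Other early response genes were read from lists. Of 18 further transcription factors of the early response, 8 had a row and none was past the threshold in limma, with 3 at an unadjusted p under 0.05, a limit that 24.2% of all mRNAs reached. Their median log2(FC) was 0.45, with 6 positive and 2 negative, down to -0.52. The largest differences were those of *KLF10* (0.97), *CSRNP1* (0.80), *MYC* (0.77) and *EGR2* (0.59), with adjusted p values of 0.244, 0.0931, 0.0985 and 0.118. *EGR2*, a relative of *EGR1*, was near the floor, with a fetal mean of 0.0429 ± 0.0476 FPKM and a neonatal mean of 0.576 ± 0.110 FPKM (SD, n = 3 each). Its groups did not overlap. It met the authors' limit of 0.5 FPKM only through the neonatal group, so that limit favoured a rise and the missing overlap is no support for one. *KLF4*, a zinc finger factor of endothelial and epithelial cells, had nearly the same values in both groups, 20.5, 23.8 and 20.0 FPKM against 23.0, 24.0 and 21.6 FPKM.

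Among 26 early response genes whose products are not transcription factors, 12 had a row. Of these, 4 rose and none fell past the threshold, beside 5.41% of all mRNAs called higher and 1.45% lower. The median log2(FC) of the 12 was 0.87. *THBS1*, which codes for a thrombospondin of the matrix, rose from a mean of 14.2 ± 3.57 FPKM to 48.1 ± 1.23 FPKM (SD, n = 3 each), with a limma adjusted p of 0.00726, and stayed past the threshold with any piglet left out. *GEM*, a small GTPase, and *PLK2*, a polo-like kinase, rose with log2(FC) values of 1.41 and 1.39 (adjusted p = 0.00929 and 0.00960 in limma), and they passed in 5 and 3 of the 6 fits with a piglet left out, with adjusted p values of at most 0.0618 and 0.0584. *CCN2*, a matricellular protein also known as CTGF, rose from a mean of 27.3 ± 4.80 FPKM to 55.6 ± 8.39 FPKM (SD, n = 3 each), with an adjusted p of 0.0334 in limma, but its adjusted p was between 0.0589 and 0.134 with 1 piglet left out, 0.0657 after median-of-ratios scaling and 0.124 after quantile normalization. *CCN1*, *PLK3* and *PPP1R15A* had log2(FC) values of 1.15, 1.03 and 0.74 and *BTG1* had -0.67, none past the threshold. *DUSP1*, the phosphatase that switches off MAP kinases and is itself an immediate early gene, had a log2(FC) of 0.09 (adjusted p = 0.842 in limma).

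Above these genes in the pathway, *SRF* was the only member past the threshold among 17 of 22 listed regulators and kinases that had a row, a share close to the 6.87% of all mRNAs. It was at 5.62, 5.33 and 5.20 FPKM in the fetal and 10.8, 13.5 and 12.3 FPKM in the neonatal lungs (log2(FC) 1.04, adjusted p = 0.0157 in limma). The adjusted p stayed at or under 0.05 in only 1 of the 6 fits with a piglet left out, and reached 0.0799. The median of this list, 0.10, was close to that of all mRNAs. *ELK1*, an SRF cofactor, the kinases *RPS6KA2* and *RPS6KA1*, and the actin-regulated SRF cofactor *MRTFA* had log2(FC) values of 0.76, 0.67, 0.64 and 0.55 and did not pass. The kinases *MAPK8*, *MAPK9* and *MAPK14* had log2(FC) values between -0.21 and 0.10. Of 14 other zipper proteins and EGR corepressors 6 had a row, and none was past the threshold in limma. *ATF1* alone was at an unadjusted p under 0.05, where the log2(FC) was 0.55 (limma adjusted p = 0.148), and *BATF3*, *ATF5* and *ATF6* had log2(FC) values of 0.93, 0.45 and 0.31. The median of these 6 was 0.38, with 4 positive and 2 negative, down to -0.29.

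**Figure D3:**
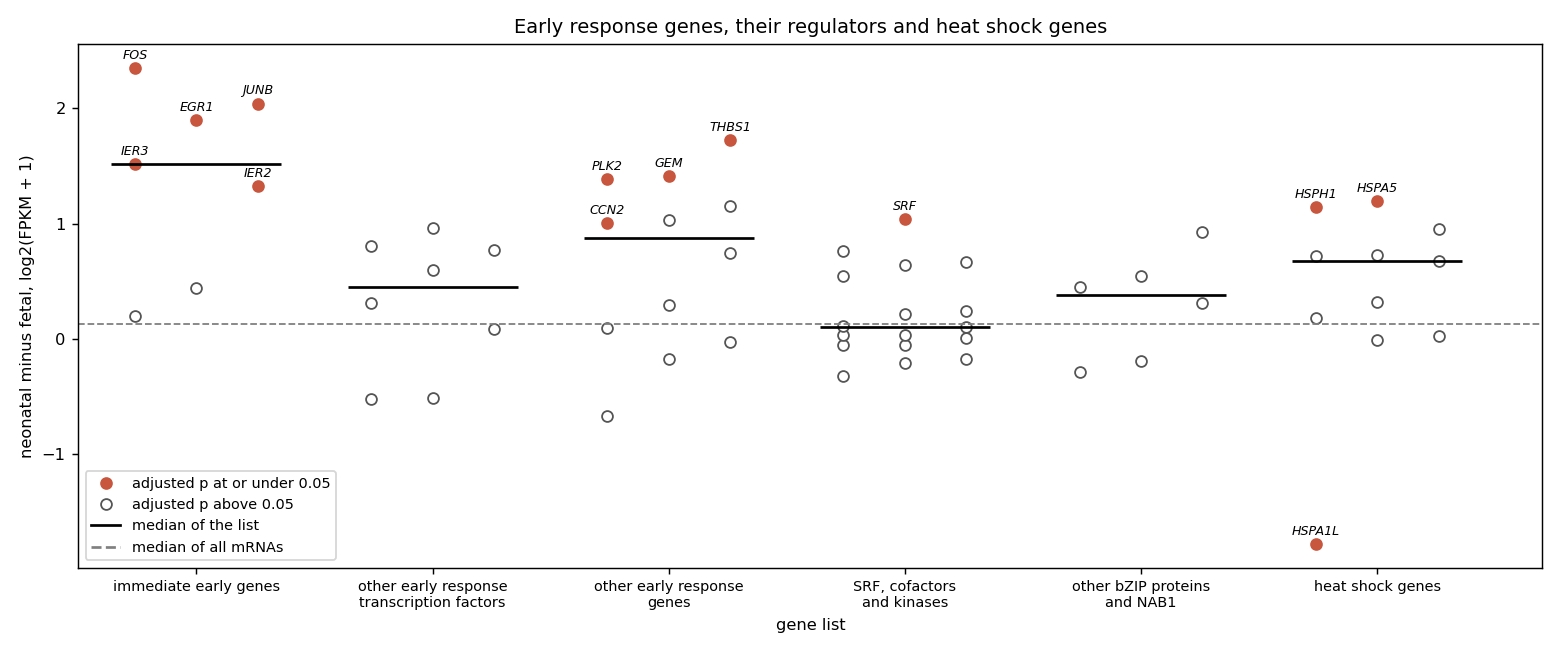
Difference between the groups on the log2(FPKM + 1) scale (y axis) for every gene with a row in 6 lists (x axis); filled points are past the threshold and are named, the bar is the median of the list and the dashed line that of all mRNAs (0.13). The 5 filled immediate early genes lie between 1.33 and 2.35, and the medians of the other lists lie between 0.10 and 0.87.

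Many heat shock genes are induced when cells or tissue are stressed. Of 11 with a row, of 14 listed, 2 rose, 1 fell and 8 were not past the threshold. Among all mRNAs, 5.41% were called higher and 1.45% lower. The log2(FC) was positive for 9 of the 11, and for 8 under median-of-ratios scaling or quantile normalization. *HSPA1L* and *HSP90AB1* (-0.0058) were the negative ones. *HSPA5* and *HSPH1*, a chaperone of the endoplasmic reticulum and a cytosolic cofactor, rose with log2(FC) values of 1.20 and 1.14 (adjusted p = 0.0258 and 0.0168 in limma), but each passed in only 1 of the 6 fits with a piglet left out, and the adjusted p reached 0.107 and 0.0876. *HSPA1L* fell by 1.78 on the log2 scale, from a mean of 225 ± 56.2 FPKM to 63.8 ± 7.75 FPKM (SD, n = 3 each), with a limma adjusted p of 0.00890, and the fall was past the threshold with any piglet left out. *HSPA1L* has the related genes *HSPA1A* and *HSPA1B*, which had no row. Reads of these genes may have been counted with it, which leaves its level and the identity of the row uncertain. *HSPA8*, *DNAJB1*, *HSP90AA1* and *DNAJA1* had log2(FC) values of 0.96, 0.72, 0.72 and 0.67 and did not pass. The median of the list was 0.67.

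Markers of several cell types differed between the groups as well. The 4 neutrophil markers with a row, of 6 listed, were all higher in the neonatal group without overlap, and 3 were past the threshold. Among all mRNAs, 20.9% were higher without overlap and 5.41% were higher past the threshold. The summed FPKM of the 4 markers lay between 81.1 and 153 in the fetal and between 842 and 1311 in the neonatal lungs. *S100A8*, *S100A9* and *S100A12*, which code for calgranulins found in neutrophils and monocytes, had log2(FC) values of 2.81, 3.15 and 3.72. *CSF3R*, the receptor for the neutrophil growth factor, had 1.23 (adjusted p = 0.0846 in limma), and none of the 4 was at 0 in any lung. Within the neonatal group the sum was lowest in Neonatal1, at 842 FPKM. The part of these cells in the rise of the immediate early genes was not tested. In a bulk sample, more cells of a type and more RNA per cell cannot be told apart.

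The 7 macrophage markers with a row, of 9, had positive log2(FC) values with a median of 1.08, from 0.06 for *CSF1R*, which turned to -0.09 and -0.07 under median-of-ratios scaling and quantile normalization, to 1.28 for *CD14*, and none was past the threshold in limma, with 5 at an unadjusted p under 0.05. The adjusted p of *CD68* was 0.0506. Their sums overlapped, between 278 and 665 FPKM in the fetal and between 504 and 1195 FPKM in the neonatal lungs. Of the 7 mesenchymal markers with a row, 2 rose past the threshold, beside 5.41% of all mRNAs called in this direction. They were the smooth muscle genes *ACTA2* and *TAGLN*, which are themselves targets of SRF, with log2(FC) values of 1.74 and 1.75. These passed in 2 and 1 of the 6 fits with a piglet left out, at limma adjusted p values of up to 0.0682 and 0.137. The other 5 did not pass, with log2(FC) values of 0.74 for *COL1A2*, 0.51 for *COL3A1*, 0.23 for *PDGFRB*, -0.17 for *DCN* and -0.44 for *ELN*, and the median of the 7 was 0.51. Endothelial, alveolar type I, alveolar type II, airway, lymphocyte and erythroid markers had no gene past the threshold in limma. At an unadjusted p under 0.05 were 3 of 7, 0 of 4, 1 of 7, 0 of 4, 2 of 6 and 0 of 4 genes of these lists, in that order, beside 24.2% of all mRNAs. The 3 endothelial genes differed in sign, with log2(FC) values of 1.20 for *CLDN5*, -0.40 for *KDR* and -0.74 for *EMCN*. The others were *SFTPA1* (0.97), *NKG7* (0.67) and *MS4A1* (-0.57). Sums of the alveolar type II markers ranged from 4875 to 5446 FPKM and from 6597 to 11791 FPKM, and those of the airway markers from 143 to 209 FPKM and from 42.3 to 109.9 FPKM, fetal and neonatal. *SFTPC* made up most of the first sum and had an adjusted p of 0.429 in limma. The lowest airway sum was that of Neonatal2, where *SCGB1A1*, the secretoglobin of club cells, was at 0.213 FPKM against 62.2 and 62.0 FPKM in Neonatal1 and Neonatal3. The part of these cell types was not tested either.

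**Figure D4:**
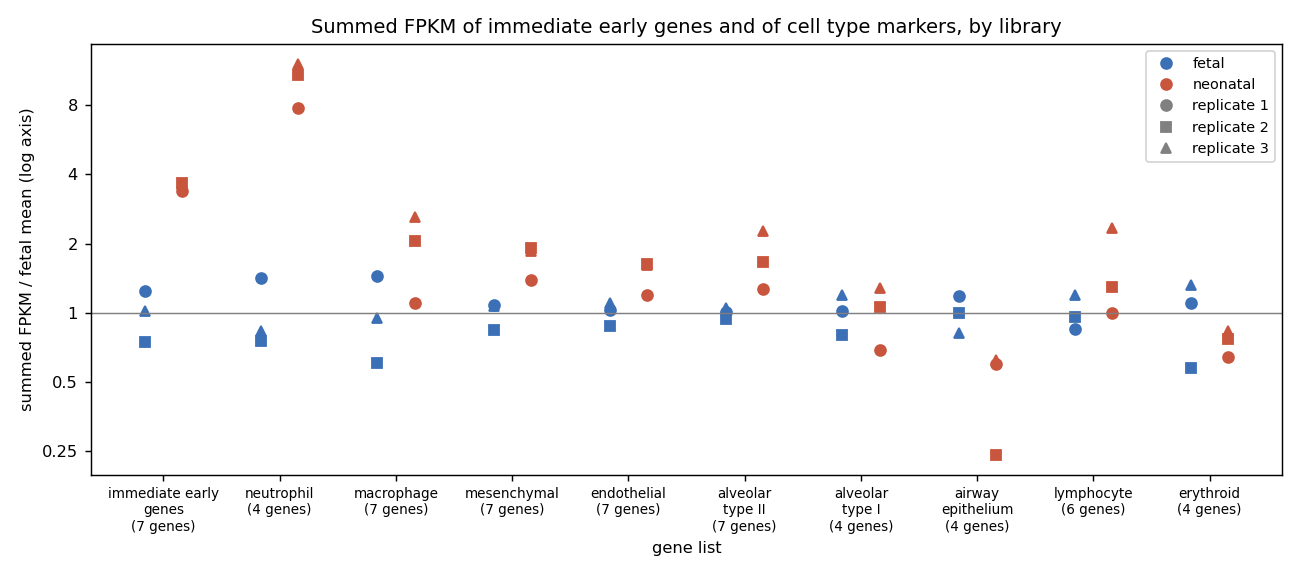
Summed FPKM of the 7 immediate early genes and of 9 lists of cell type markers in each lung, divided by the fetal mean of the list (y axis, log scale); colours mark the groups and symbols the replicate number. The neonatal sum of the immediate early genes was 3.57 times the fetal mean, that of the neutrophil markers 10.3 times and that of the macrophage markers 1.92 times, the last with overlap between the groups. Sums are not divided by the summed FPKM of all mRNAs, which was also higher in the neonatal lungs.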

How the data were processed

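The authors sequenced lung RNA of 6 piglets, with 1 strand-specific Ribo-Zero library each. The deposited values are FPKM, which the authors computed with Cufflinks 2.2.1 from quality-filtered reads that TopHat2 2.1.0 mapped to Sscrofa10.2 (tools also per the labels). All 14579 mRNAs of the table exceeded 0.5 FPKM in at least 1 sample, and 0 value columns were unmatched. A symbol was found for 9840 rows, 9478 from a reference table and 362 from a supplementary table of the study. The lncRNA table was not used here. No coordinates of the build were held.

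Values were fitted as log2(FPKM + 1) with limma 3.58.1 under R 4.3.3, two-sided and with a trend of variance on the mean, over all mRNAs, and the fit was tested on simulated data. Ratios of genes were compared by exact permutation tests in scipy 1.17.1 (Python 3.11.15). Beside the 10 genes, the rule named from each list up to 4 genes past the threshold with the smallest adjusted p and up to 4 others with the largest difference, and the 5 mRNAs nearest to *FOS*. *DUSP1*, *KLF4*, the MAP kinases and marker genes were named in addition after their values were seen. The genes and lists were chosen with earlier results of these data known. Alternatives were pseudocounts of 0.5 and 0.1, no filter, FPKM above 1 in at least 3 samples, 2 other normalizations, no variance trend, a replicate block and each sample left out. The main fit used no filter beyond that of the authors, so the setting without a filter was the same fit and could not differ.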

Additional observations from a re-analysis of the deposited data

How the results depend on the processing

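The log2(FC) of each of the 7 genes kept its sign under every alternative run, and *FOS* and *JUNB* passed the threshold in all those that kept the 6 piglets. Same-numbered piglets came from different sows, and their deviations from the group means correlated at -0.0407, -0.00434 and 4.66e-04 over the mRNAs, so the numbers do not pair them. With the replicate number as a block, a fit with fewer residual degrees of freedom, the members past the threshold went from 5 to 2, all mRNAs from 1001 to 401, heat shock genes from 3 to 1 and upstream genes from 1 to 0. In that block fit *EGR1* (1.90, adjusted p = 0.0579), *IER2* (1.33, adjusted p = 0.0646) and *IER3* (1.52, adjusted p = 0.0780) did not pass in limma, at unmoved differences. With 1 piglet left out, a fit on 5 samples, the members past the threshold numbered 1 to 4 and all mRNAs 196 to 944. Heat shock genes numbered 1 to 3, other early response genes that are no transcription factors 1 to 3, other early response factors 0 to 1 and upstream genes 0 to 1. In the same fits the log2(FC) ranged from 2.10 to 2.66 for *FOS*, 1.80 to 2.25 for *JUNB*, 1.61 to 2.17 for *EGR1*, 1.22 to 1.51 for *IER2*, 1.23 to 1.74 for *IER3*, 0.07 to 0.32 for *ATF3* and 0.23 to 0.67 for *EGR3*. *EGR3* had no value under the stricter filter on FPKM. Without read counts, what depth limits could not be computed.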

Other observations

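In the RefSeq annotation of Sscrofa11.1, used for the order of genes only, *JUNB* and *IER2* lie on the same chromosome with 18 protein-coding genes between them. Of these, 15 had a row by symbol, and 6 of the 15 were past the threshold, all higher in the neonatal group, beside 5.41% of all mRNAs called in that direction. The 6, named after their values were seen, were *NACC1*, *NFIX*, *CALR*, *FARSA*, *SYCE2* and *DNASE2*, with log2(FC) values of 1.08, 0.86, 1.19, 1.05, 1.90 and 1.07. *SYCE2* was near the floor in the fetal lungs, at 0.317, 0 and 0.0288 FPKM. It met the authors' limit of 0.5 FPKM only through the neonatal group, so that limit favoured its rise. *CALR*, the calcium-binding chaperone calreticulin, was at 149, 104 and 124 FPKM in the fetal and 230, 317 and 317 FPKM in the neonatal lungs. The median of the 15 was 0.68. The count was 4 with median-of-ratios scaling and 5 with quantile normalization, 4 without Neonatal1, and 0 with any other piglet left out or with the replicate block. The interval was chosen because both genes rose, so no test is given.

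The 2 nearest genes with a row on each side of *FOS*, *JUNB*, *EGR1*, *IER2* and *IER3* made 20 genes, with a median log2(FC) of 0.31. *NACC1* and *TUBB*, a tubulin gene near *IER3*, were past the threshold and higher, and none was lower. *NACC1*, *STX10*, *RNASEH2A* and *PRDX2* were also among the 15 genes of the interval above, so the counts share genes. With the neighbours of *ATF3* and *EGR3* added, 3 of 28 were past the threshold. *DTL*, near *ATF3*, was the added one (log2(FC) 0.95, limma adjusted p = 0.0429). Among all mRNAs, 5.41% were called higher and 1.45% lower. The 4 around *FOS* (*NEK9*, *ZC2HC1C*, *FLVCR2* and *TTLL5*) lay between -0.12 and 0.30, beside 2.35 for *FOS* itself.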
